A study of Mus musculus with 6 samples.

Results

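The transcription factor Nrf2 works within a small circuit of regulators, and the transcripts of 10 of its genes were followed here: Nfe2l2 (which encodes Nrf2), its relative Nfe2l1, the inhibitor Keap1 and its partner Cul3, the small Maf genes Mafg, Maff and Mafk, the repressors Bach1 and Bach2, and Sqstm1. A probe set is a group of probes on the array that together give 1 value. Members were all probe sets whose platform annotation gives exactly 1 gene symbol, that symbol being one of these genes. All 10 genes were measured, by 21 of the 45037 probe sets tested, among 18193 genes in all. In the RefSeq annotation Mafg, Nfe2l1 and Sqstm1 lie on chromosome 11, Nfe2l2 on 2, Keap1 on 9, Cul3 on 1, Maff on 15, Mafk on 5, Bach1 on 16 and Bach2 on 4. RNA came from entire pieces of back skin, taken on postnatal day 2.5 from 6 female littermates and hybridised to 1 Affymetrix array per mouse. In 3 mice, labelled K5cre-caNrf2 (tg/tg), a constitutively active Nrf2 (caNrf2) was combined with a Cre recombinase under the keratin 5 promoter, a driver used for basal keratinocytes. The other 3, labelled K5cre-wt (tg/wt), were the controls, and this label is read here as the Cre transgene alone. The strain background was mixed (FVB/N and C57BL/6) in both groups, and the sample descriptions call both groups weak, a word they do not explain. The transgene is thus meant for keratinocytes, while the RNA came from all cells of the skin. In bulk skin, fewer cells of a type and less RNA per cell cannot be told apart.

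Nrf2 is a leucine zipper factor that is made continuously and, in unstressed cells, destroyed continuously. Keap1 holds it and presents it to a Cul3 ubiquitin ligase, and electrophiles or oxidants that react with Keap1 end this, so that Nrf2 enters the nucleus. There it pairs with a small Maf protein (MafF, MafG or MafK) on antioxidant response elements and switches on genes of detoxification, glutathione and NADPH supply. Bach1 and Bach2 pair with the same small Maf proteins and repress genes at related elements, Bach1 until haem releases it. Sqstm1, also called p62, binds Keap1 and carries it to autophagy. Constitutively active forms of Nrf2 of the kind used in skin lack the part of the protein that Keap1 binds. The labels do not describe the construct further.

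The start regions of the members with the largest differences are shown because several genes of the circuit are known Nrf2 targets themselves and carry elements for it. Each line gives 250 bases before and 50 bases after a transcription start of the RefSeq annotation (build GRCm38.p6), 5′ to 3′ on the strand of the gene. Capitals mark matches to TGACNNNGC, the core of the antioxidant response element, searched on both strands.
Mafg (chr11:120633498-120633797, minus strand): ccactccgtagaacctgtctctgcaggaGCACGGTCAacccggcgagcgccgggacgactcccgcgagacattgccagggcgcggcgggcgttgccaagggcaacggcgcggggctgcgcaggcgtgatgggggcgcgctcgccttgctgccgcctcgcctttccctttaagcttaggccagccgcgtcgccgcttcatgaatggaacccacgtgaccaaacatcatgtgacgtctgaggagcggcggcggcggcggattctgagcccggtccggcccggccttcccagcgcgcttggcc
Nfe2l2 (chr2:75704614-75704913, minus strand): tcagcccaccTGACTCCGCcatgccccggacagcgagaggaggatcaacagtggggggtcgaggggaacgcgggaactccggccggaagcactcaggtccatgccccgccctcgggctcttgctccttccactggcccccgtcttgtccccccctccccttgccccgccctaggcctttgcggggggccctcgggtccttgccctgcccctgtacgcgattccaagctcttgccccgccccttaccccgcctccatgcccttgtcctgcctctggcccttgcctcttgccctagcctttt
Bach1 (chr16:87698704-87699003, plus strand): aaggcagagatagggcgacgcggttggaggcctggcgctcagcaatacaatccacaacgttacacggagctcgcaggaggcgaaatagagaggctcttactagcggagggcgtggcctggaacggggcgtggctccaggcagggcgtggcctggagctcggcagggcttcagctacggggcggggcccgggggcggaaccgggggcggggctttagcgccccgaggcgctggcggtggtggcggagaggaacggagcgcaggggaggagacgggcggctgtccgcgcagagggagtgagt
Such a match was found for 4 of the 10 genes, in 4 of their 16 windows, against 12.4% of 32851 windows of this length genome-wide. In Mafg it lies 222 to 214 bases before the start and is read on the opposite strand. In Nfe2l2 it lies 240 to 232 bases before the start and is read on the strand of the gene. The Mafg start used lies within the annotated gene, which spans positions 120625117 to 120634955 of chromosome 11. The remaining matches belong to the other small Maf genes, and these are shown with the flanking bases for comparison with Mafg.
Mafk (chr5:139791513-139791541, plus strand): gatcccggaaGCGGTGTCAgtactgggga
Maff (chr15:79346499-79346527, plus strand): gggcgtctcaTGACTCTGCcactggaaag
In Mafk the match lies 13 to 5 bases before the start, on the opposite strand, and in Maff 112 to 104 bases before the first of its 3 starts. No match lay in the windows of Keap1, Cul3, Nfe2l1, Bach1, Bach2 or Sqstm1. The core shared by AP-1 and NF-E2, TGANTCA, occurred in none of the 16 windows, against 7.81% of all windows. A match describes letters in a window, and no match says only that these letters are not in it.

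Median intensities were alike across arrays, at 80.9 to 81.8 on caNrf2 arrays and 81.4 to 82.1 on control arrays. Upper quartiles were 332.5, 344.5 and 342 on caNrf2 arrays 1 to 3, against 333.3, 330.7 and 331.9 on control arrays 1 to 3. Correlations between arrays were 0.9961 to 0.9969 among caNrf2 arrays, 0.9978 to 0.9980 among control arrays and 0.9961 to 0.9972 between the groups. The spiked hybridisation controls averaged 10.78, 10.97 and 10.82 (log2 intensity) on caNrf2 arrays 1 to 3, against 10.71, 10.70 and 10.64 on control arrays 1 to 3, a difference of 0.17 without overlap (exact two-sided permutation p = 0.1, the smallest that 3 against 3 arrays allow). The poly-A controls, added before labelling, differed by -0.001 (exact permutation p = 1). The part of this shift in the results was not tested. Of 46 measured marker genes of 11 cell classes of the skin none passed the threshold, and the summed intensities of all 11 classes overlapped between the groups. By gene, 5 of 5 basal and 5 of 5 suprabasal keratinocyte markers were higher in caNrf2 skin (median log2 differences 0.05 and 0.01). Of the adipocyte and endothelial markers, 0 of 3 and 0 of 3 were higher (medians -0.05 and -0.12). Directions were mixed within each other class. The basal keratinocyte markers, which include Krt5 and Krt14, summed to 26610 to 28610 intensity units in caNrf2 skin and 26320 to 27530 in control skin. Markers of T and B lymphocytes were dim, at 337 to 381 in caNrf2 skin and 358 to 386 in control skin. Of the 46 genes only Cd2, a marker of this class, lay on average below the lower quartile of all probe sets.

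Within the circuit, Mafg was higher in caNrf2 skin by a called difference, while its relatives Mafk and Maff were close to equal. The brighter sets of Nfe2l2 and Keap1 and both sets of Bach1 were also above every control array, by 1.21-fold to 1.33-fold, but did not pass the threshold. Bach2, Nfe2l1 and Mafk were at almost the same level in both groups. Of the 21 probe sets 1 rose and 0 fell (limma, Benjamini-Hochberg adjusted p under 0.05 over all 45037 probe sets), which is 4.76% of the members. Among all probe sets 0.226% rose and 0.0133% fell, 0.24% in all. At an unadjusted p under 0.05 the count was 8 of the 21 member probe sets, all higher, against 8.86% of all probe sets in either direction and 4.01% higher. The groups did not overlap for 9 of the 21 (42.9%), from 6 of the 10 genes, and in each of the 9 caNrf2 skin was higher. Of all probe sets 14.2% separated the groups, 6.9% with caNrf2 skin higher and 7.28% with it lower. The difference was above 0 for 20 of the 21, where 48.4% of all probe sets lay above 0. Some of these differences were near 0, such as 0.001 on a Cul3 set, 0.002 on a Bach2 set and 0.006 for Mafk. Quantile normalisation once more turned them negative, at -0.036, -0.037 and -0.029, so the count of 20 depends on the processing. The median difference was 0.14 for the members and -0.004 for all probe sets (log2, caNrf2 minus control). Probe sets of 1 gene share their transcript, so these counts are not of independent genes.

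**Figure D1:**
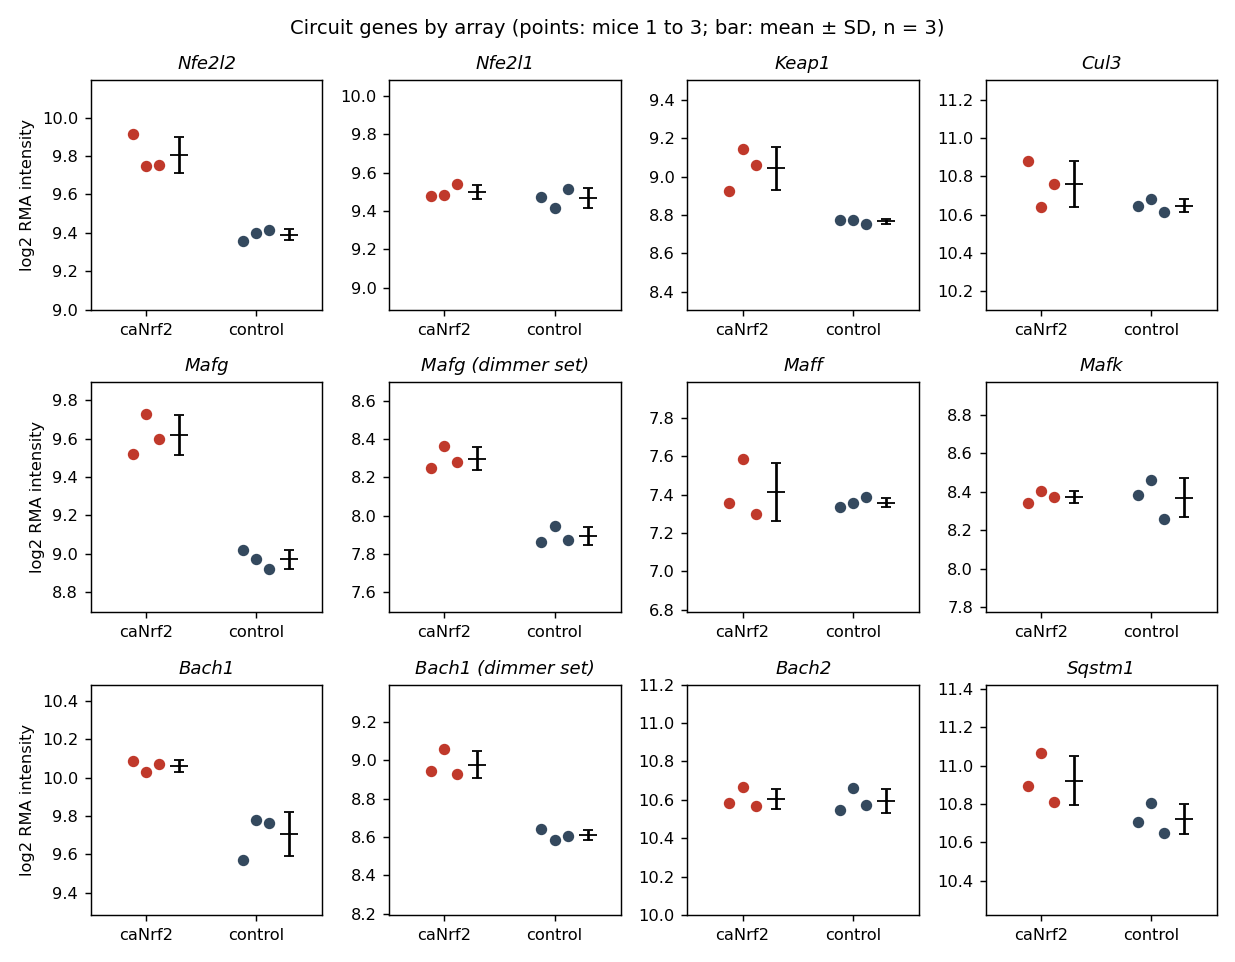
Log2 RMA intensity of each circuit gene on the 6 arrays, caNrf2 mice left and control mice right in each panel, with the mean and SD of 3 mice beside the points. The brightest probe set of each gene is shown, with the dimmer set of Mafg and Bach1 too, and every panel spans the same range of log2 units and does not start at 0. The caNrf2 points lie above all control points for Nfe2l2, Keap1, both Mafg sets, both Bach1 sets and Sqstm1, and overlap them for Nfe2l1, Cul3, Maff, Mafk and Bach2. The dimmer sets of Nfe2l2, Keap1, Bach2 and Sqstm1 overlap and are not shown. Of the dimmer Cul3 sets, also not shown, some separate the groups. Among all probe sets 14.2% do so in either direction.

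Nfe2l2 was measured by a bright and a dim probe set. The bright one gave 964, 860 and 864 intensity units in caNrf2 mice 1 to 3, against 657, 674 and 683 in control mice 1 to 3. The lowest caNrf2 value thus stood well above the highest control value, with caNrf2 mouse 1 the highest of all. The fold was 1.33, a log2 difference of 0.41 ± 0.08 (SE; 95% interval 0.24 to 0.58) that missed the threshold (adjusted p = 0.0812). The dim set gave 18.9, 28.8 and 20.4 units in caNrf2 mice and 17.7, 20.1 and 18.9 in control mice. These values overlap and lie close to the lower quartile of the arrays, 23.5 to 24.9 units, so this set adds little on the level of the transcript. Whether either set binds the transcript of the transgene as well as that of the resident gene was not tested.

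Nfe2l1 encodes Nrf1, a relative of Nrf2 that sits in the endoplasmic reticulum and is known for raising proteasome genes. Its probe set gave 713, 715 and 745 units in caNrf2 mice, against 710, 683 and 732 in control mice. The groups overlapped and the log2 difference was 0.03 ± 0.07 (95% interval -0.13 to 0.19; adjusted p = 0.936). Set against each other within each array, Nfe2l2 exceeded Nfe2l1, relative to control skin, by 0.51, 0.35 and 0.29 log2 units in caNrf2 mice 1 to 3, with -0.04, 0.06 and -0.02 in control mice. The groups separated, at a mean of 0.38 ± 0.12 in caNrf2 skin and 0 ± 0.05 in control skin (SD, n = 3). The exact two-sided permutation p was 0.1, the smallest that 3 against 3 arrays allow, and 0.125 after Benjamini-Hochberg adjustment over the 5 pairs of members compared.

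Keap1, the sensor that marks Nrf2 for destruction, was measured by 2 probe sets of similar brightness. The brighter one gave 485, 567 and 534 units in caNrf2 mice and 438, 438 and 431 in control mice. All caNrf2 values were higher, mouse 2 the most, and the control values were almost identical. The difference was 1.21-fold (1.07 to 1.37; log2 0.28 ± 0.08, adjusted p = 0.349). On the other set caNrf2 mouse 1, at 429 units, lay below control mouse 1, at 451, and the difference was 0.23 ± 0.10 (adjusted p = 0.551). Neither set passed the threshold, and the groups separated on 1 of the 2, as they did for 14.2% of all probe sets (6.9% with caNrf2 skin higher).

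Cul3, the scaffold of the ligase to which Keap1 delivers Nrf2, had 5 probe sets. Their log2 differences were 0.11, 0.13, 0.14, 0.001 and 0.14, from the brightest to the dimmest, and adjusted p lay between 0.598 and 0.999. The brightest gave 1883, 1595 and 1732 units in caNrf2 mice, against 1605, 1644 and 1566 in control mice. Mouse 1 was the highest and mouse 2 the lowest of the caNrf2 group, the reverse of their order for Keap1. Groups separated on 2 of the 5 sets, where the fold was 1.11 and 1.10. Of all probe sets 14.2% separated the groups, 6.9% with caNrf2 skin higher. The set with no difference is of the kind marked as shared between related transcripts. Keap1 set against Cul3 gave -0.08, 0.39 and 0.18 in caNrf2 mice and 0.01, -0.03 and 0.02 in control mice, so this ratio overlapped (exact permutation p = 0.4, also 0.4 when adjusted).

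Mafg, whose protein is one of the small Maf partners, showed the largest difference of the 10 genes. Its brighter probe set gave 735, 849 and 776 units in caNrf2 mice 1 to 3, against 519, 503 and 485 in control mice 1 to 3. The 2 groups lay far apart compared with their spread, and Mafg rose 1.57-fold (95% interval 1.38 to 1.77; log2 0.65 ± 0.08, adjusted p = 0.00565). It held rank 59 by p of all probe sets. The dimmer set gave 304, 330 and 311 units in caNrf2 mice and 233, 247 and 234 in control mice. It separated the groups too, at 1.32-fold (1.18 to 1.48; log2 0.40 ± 0.07), but missed the threshold (adjusted p = 0.0768). Mouse 2 was the highest caNrf2 animal on both sets.

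The other small Maf genes did not show this. Mafk gave 325, 339 and 332 units in caNrf2 mice, against 334, 353 and 306 in control mice. Its log2 difference was 0.01 ± 0.08, with a 95% interval of -0.17 to 0.18, which does not reach the 0.65 of Mafg. Maff gave 164, 192 and 157 units in caNrf2 mice and 161, 164 and 167 in control mice, a difference of 0.05 ± 0.09 (interval -0.14 to 0.25; adjusted p = 0.896). Only caNrf2 mouse 2 stood above the control range of Maff, and mouse 3 stood below it.

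The inequality among the small Maf genes was tested within arrays. Both ratios use the brighter Mafg set, so they are not independent of each other. The dimmer Mafg set, whose difference was smaller (0.40), was not used. Mafg set against Mafk, relative to control skin, was 0.58, 0.72 and 0.62 log2 units in caNrf2 mice and 0.03, -0.09 and 0.06 in control mice. The mean was 0.64 ± 0.07 in caNrf2 skin and 0 ± 0.08 in control skin (SD, n = 3). Mafg set against Maff was 0.55, 0.53 and 0.69 in caNrf2 mice and 0.07, 0.004 and -0.08 in control mice. Both ratios separated the groups, each with an exact permutation p of 0.1, the smallest possible, and 0.125 when adjusted over the 5 pairs. The exact permutation test cannot give a smaller p with 3 against 3 arrays, and no other test of these ratios was run.

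**Figure D2:**
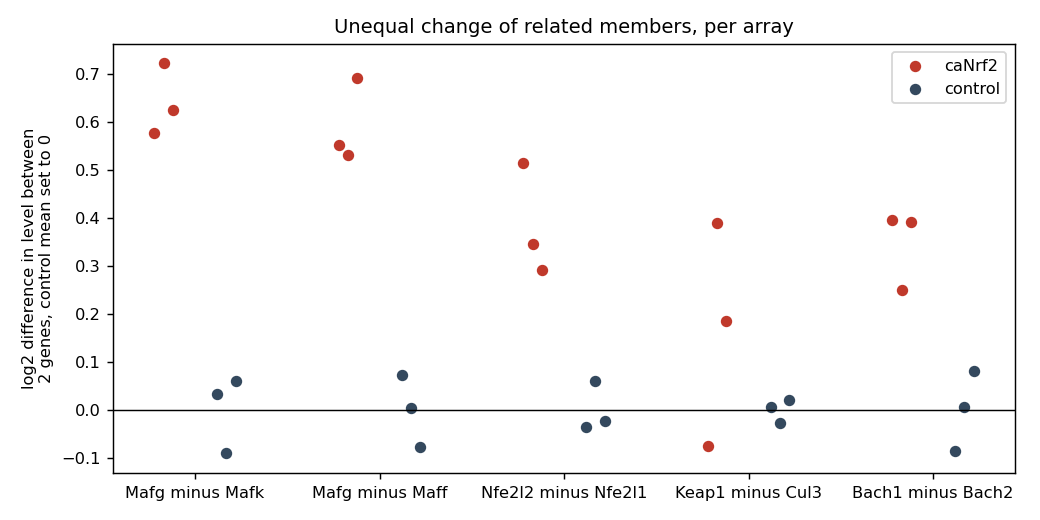
Log2 ratio between 2 related members on each array, from the brightest probe set of each and with the control mean set to 0; caNrf2 arrays left and control arrays right of each tick. The caNrf2 points lie above all control points in 4 of the 5 pairs, and in the pair of Keap1 and Cul3 caNrf2 mouse 1, at -0.08, lies below the controls. Each of these 4 pairs has an exact permutation p of 0.1, the smallest possible, and 0.125 when adjusted over the 5 pairs. Both Mafg pairs use the same Mafg probe set, and the share of all gene pairs that separate was not computed.

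Bach1, the haem-sensitive repressor that competes for small Maf partners, was measured by 2 probe sets. The brighter one gave 1089, 1043 and 1075 units in caNrf2 mice, against 762, 879 and 871 in control mice. The dimmer one gave 492, 533 and 488 units in caNrf2 mice and 399, 385 and 390 in control mice. Both sets separated the groups, as did 14.2% of all probe sets (6.9% with caNrf2 skin higher). Their differences were nearly equal, at 1.28-fold (1.13 to 1.45) and 1.29-fold (1.15 to 1.44). Neither passed the threshold, with log2 0.36 ± 0.08 (adjusted p = 0.211) and 0.37 ± 0.07 (adjusted p = 0.131). Control mouse 1 was lowest on the brighter set and highest of its group on the dimmer one.

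Bach2, the relative best known from B and T lymphocytes, was at the same level in both groups. Its brightest probe set gave 1532, 1624 and 1518 units in caNrf2 mice, against 1495, 1622 and 1525 in control mice. The log2 differences of the 3 sets were 0.01, 0.002 and -0.02, and the 95% interval of the brightest, -0.15 to 0.18, lay below the value of either Bach1 set. These levels were measured in skin whose lymphocyte markers were dim. Within arrays, Bach1 set against Bach2 was 0.40, 0.25 and 0.39 in caNrf2 mice and -0.09, 0.01 and 0.08 in control mice, which separates the groups (exact permutation p = 0.1, the smallest possible, and 0.125 when adjusted).

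Sqstm1, the autophagy receptor that removes Keap1, had a bright and a dim probe set. The bright one gave 1905, 2141 and 1794 units in caNrf2 mice, against 1673, 1792 and 1607 in control mice. The lowest caNrf2 value, 1794, and the highest control value, 1792, almost touched, so the separation is marginal. The difference was 1.15-fold (95% interval 1.01 to 1.31; log2 0.20 ± 0.09, adjusted p = 0.548). The dim set gave 30.3, 34.2 and 31.5 units in caNrf2 mice and 34.8, 32.4 and 28.7 in control mice, a difference of 0.004 ± 0.09 at a level near the lower quartile.

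**Figure D3:**
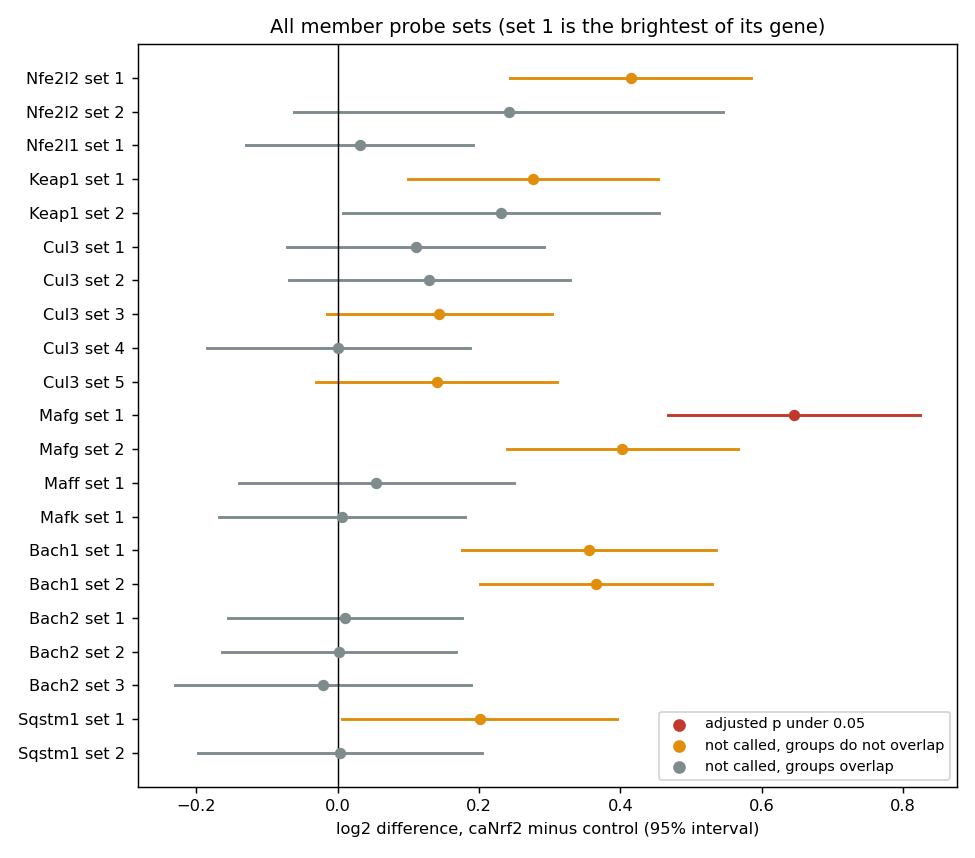
Log2 difference, caNrf2 minus control, with its 95% interval from limma for all 21 member probe sets, numbered from the brightest set of each gene. The brighter Mafg set is the 1 called set at 0.65, and 8 further sets separate the groups without being called. Of all probe sets 14.2% separate the groups in either direction.

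The genes around the circuit were read from lists chosen with earlier results of these data known. Of 42 probe sets of 23 measured Nrf2 target genes 37 rose and 0 fell (88.1%, against 0.24% of all probe sets), with a median of 0.98. This list was largely known to rise in these samples and is not independent evidence. It gives the scale against which the circuit stands. Nqo1, a quinone reductase, averaged 9.53 in caNrf2 skin and 5.92 in control skin (log2 intensity), a difference of 3.60 ± 0.13 (adjusted p = 3.38e-07). Gclm, a subunit of the enzyme that starts glutathione synthesis, differed by 1.11 ± 0.10. The called Mafg difference of 0.65 was below the median of this list.

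Genes that Bach1 is known to repress formed the other list with called members. Of 15 probe sets of 9 measured genes 6 rose and 0 fell (40%, against 0.24% of all probe sets), with a median of 0.40. However, 5 of these genes are also in the list of Nrf2 targets and 1 is Mafg itself. The 3 genes outside both had 6 probe sets, none called, with differences of 0.07 to 0.32. They are Slc48a1 (a haem transporter), Slc40a1 (the iron exporter ferroportin) and Fth1 (ferritin heavy chain). Slc48a1 separated the groups on both of its sets, at 0.32 ± 0.08 (adjusted p = 0.298) and 0.24 ± 0.09 (adjusted p = 0.486). Of all probe sets 14.2% did so. Hmox1, the haem oxygenase that is the standard Bach1 target, gave 8.77, 9.18 and 8.84 in caNrf2 mice and 8.71, 8.68 and 8.66 in control mice (log2 intensity). Mouse 2 carried most of its difference of 0.24 ± 0.10 (adjusted p = 0.541).

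No probe set passed the threshold in the remaining lists. Other regulators of Nrf2 stability and activity, such as the ligase adaptor Btrc and the kinase Gsk3b, had 55 probe sets of 23 genes and a median of 0.03. The smallest p belonged to the coactivator Crebbp (0.33 ± 0.11 on a dim set), the kinase Tbk1, which also phosphorylates Sqstm1 (0.23 ± 0.07), and the ligase adaptor Fbxw11 (0.23 ± 0.08), with adjusted p of 0.404, 0.404 and 0.443. Groups separated for 14.5% of these sets, close to the 14.2% of all probe sets. The 25 probe sets of other leucine zipper relatives, among them Nfe2l3, Maf, Jun and Fos, had a median of 0.02. Fos differed by 0.46 ± 0.16 with overlapping groups (adjusted p = 0.445), and a dim set of Jund by -0.33 ± 0.10 (adjusted p = 0.398), while its bright set differed by -0.04 ± 0.08. A dim set of Maf differed by 0.24 ± 0.09 (adjusted p = 0.490). Factors that process Nrf1 had 28 probe sets and a median of 0.02. Vcp, the ATPase that extracts Nrf1 from the membrane, differed by 0.15 ± 0.07 on its bright set (adjusted p = 0.594). Its dimmer set had the smallest p of this list, at 0.19 ± 0.08 (adjusted p = 0.548).

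Autophagy partners of Sqstm1 had 44 probe sets of 15 genes, none called, and a median of 0.01. Gabarapl1, a protein of the autophagosome membrane, had the smallest p of this list, on both of its sets. The brighter gave 9.97, 10.16 and 9.83 in caNrf2 mice, against 9.57, 9.55 and 9.42 in control mice (log2 intensity), a difference of 0.47 ± 0.09 (adjusted p = 0.120). The dimmer gave 0.54 ± 0.10 (adjusted p = 0.0690). Groups separated on both, and for 15.9% of the probe sets of this list, close to the 14.2% of all probe sets. Calcoco1 came next by p, at -0.26 ± 0.09 on a dim set (adjusted p = 0.453).

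**Figure D4:**
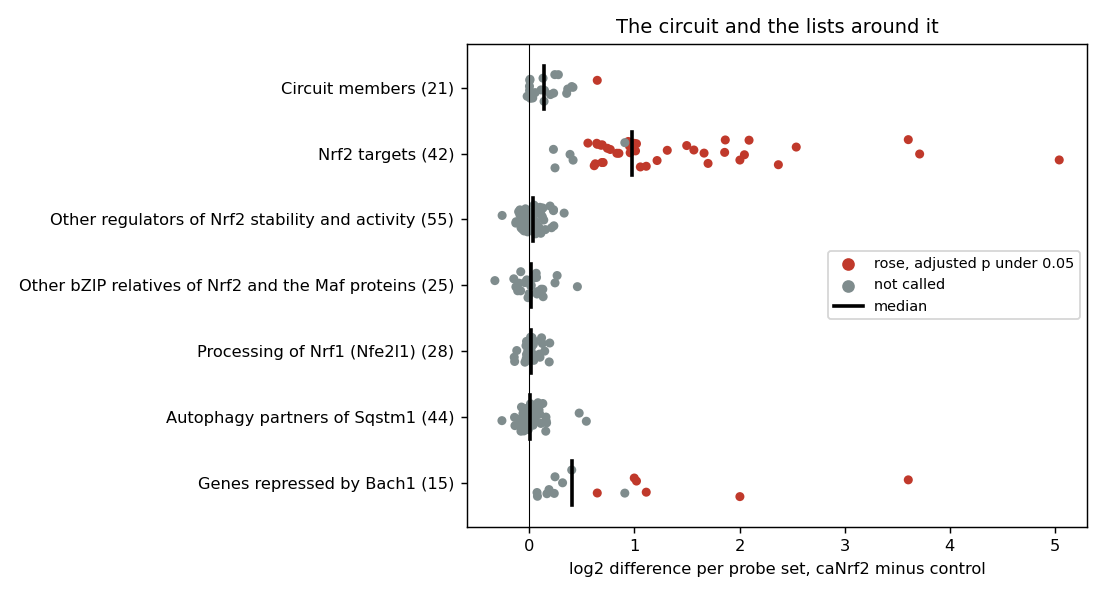
Log2 difference, caNrf2 minus control, of every probe set (points) of the circuit and of 6 lists of genes around it, with the number of probe sets in brackets and the median as a black bar; points are spread vertically only to be seen. Called points occur in the circuit, the Nrf2 targets (median 0.98) and the genes repressed by Bach1 (median 0.40), and the medians of the other lists lie between 0.01 and 0.03.

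Profiles over the 6 arrays were compared with those of 18192 other genes, each centred on its control mean, by the root mean square difference in log2 units. The closest to Mafg were Ppard (0.05), which encodes a nuclear receptor for fatty acids, and Gsr (0.06), glutathione reductase. Next were Me1 (0.06), malic enzyme, Hk1 (0.07), a hexokinase, and Cracdl (0.08). All 5 rose, by 0.59, 0.68, 0.63, 0.55 and 0.63 in this order, and Gsr and Me1 are in the list of Nrf2 targets. The closest to Nfe2l2 were Adh6b (0.05), Cep76 (0.07), Nampt (0.07), Lix1 (0.07) and Sdr16c6 (0.08), none of which passed the threshold (adjusted p between 0.0728 and 0.316). With 6 arrays in 2 groups this measure ranks genes largely by the size of the group difference.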

How the data were processed

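Total RNA of back skin was hybridised to Affymetrix mouse arrays, 1 per animal, after labelling from 2 µg of RNA, per the labels' protocols. The deposited intensities, on a linear scale, were made by the authors with RMA, per the submitters' processing notes. RMA subtracts background, normalises by quantiles and summarises probes, so it hides shifts shared by most genes and compresses folds near background. Its version is not given in the sources used here. Scanner files were not used here, and columns of other series numbered 0. No array pair held identical values.

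The values were taken to log2 for the tests. After 64 Affymetrix controls were left out, 45037 probe sets were fitted in R 4.3.3 by limma 3.58.1 (eBayes after lmFit, without a trend or covariates, leaving 4 residual degrees of freedom). P-values were adjusted by Benjamini-Hochberg over all of them, with a threshold of 0.05. Of these, 34945 have 1 gene symbol, 932 several and 9160 none. All 21 member probe sets matched a gene identifier of the RefSeq table (GRCm38.p6), which also supplied the sequences. Ratios between 2 members were tested by exact two-sided permutation of the 6 arrays. The fit was also run on simulated, independent and normally distributed values, with variances drawn from the distribution fitted to these arrays. Such values hold no shifts shared within an array, so this checked the code and not the calls made here. Replicates were separate animals, and 3 arrays per group limit the precision.

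The members, the lists and the rule for named genes (all members, the called genes or up to 3 smallest p of each list, the 5 nearest profiles of Mafg and Nfe2l2) were chosen with earlier results of these data known. Slc48a1, Slc40a1, Fth1, Hmox1, Btrc, Gsk3b, Nfe2l3 and Jun fall outside this rule and were named after their values were seen. Called genes of the lists are named only in part. Of 21 Nrf2 target genes with a risen probe set, Nqo1, Gclm, Gsr and Me1 are described. Tried as alternatives were array weights, robust eBayes, an intensity trend, 1 probe set per gene, a filter at mean log2 5, a pseudocount of 16, quantile normalisation once more, centring on medians, the replicate number as a block, and each array left out. Same-numbered animals did not deviate together (correlations of deviations -0.15, -0.04 and 0.04), so the numbers were not taken as pairs.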

Additional observations from a re-analysis of the deposited data

Results flagged for a closer look

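The hybridisation controls lie outside the comparison of genes. They were higher on caNrf2 arrays by 0.173 (log2), with each caNrf2 array above each control array, which is a signal in probe sets that no comparison of genes used.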

How the results depend on the processing

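The brighter Mafg set kept its call under all 16 alternatives, with log2 differences of 0.59 to 0.69 and adjusted p up to 0.0494. The count of called member sets was 2 with the filter on low values, 3 with the pseudocount and 4 with the intensity trend, against 1. It was 1 whichever array was left out. Among all probe sets 119 of 31217 were called with the filter. The pseudocount gave 97 and the trend 161 calls of 45037, against 108 in the main fit. The added member calls were the dimmer Mafg set under all 3 settings, the bright Nfe2l2 set with the pseudocount and the trend (adjusted p = 0.0461 and 0.0171), and the dimmer Bach1 set with the trend (0.0447). Over their alternatives the bright Nfe2l2 set differed by 0.36 to 0.44, the dim one by 0.06 to 0.36 and the Bach1 sets by 0.29 to 0.39. Quantile normalisation once more lowered the brighter Mafg set from 0.646 to 0.61 and the bright Nfe2l2 set from 0.415 to 0.378. Keap1 stayed positive and uncalled under every alternative, at 0.14 to 0.34 over both sets. Mafk, Maff, Nfe2l1, all Bach2 sets, the Cul3 set near 0 and the dim Sqstm1 set changed sign under some alternatives. Called probe sets in all numbered 108, 68 with 1 probe set per gene (fewer features tested), and 64 to 136 when single arrays were left out. They were 69, 64 and 67 without control array 1, 2 and 3. With 1 probe set per gene, 20 Nrf2 target sets were called. Autophagy partners had 1 call with the filter, 2 with the trend and 0 to 1 when single arrays were left out. When same-numbered arrays of both groups were left out, Mafg against Mafk lay between 0.554 and 0.689, and Mafg against Maff between 0.503 and 0.647. Keap1 against Cul3 lay between 0.04 and 0.29. The replicate block gave 97 calls in all and 1 among the members, and changed no other call of the members. Cyclic loess, chosen after seeing the data, gave 106 and 1. The median of all probe sets lay between -0.01 and 0.01 under every setting. Dim sets of Nfe2l2 and Sqstm1, near the lower quartile, limit what can be said of them.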
